A study of Mus musculus with 30 samples.

Results

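RMER and MER are names that RepeatMasker gives to families of interspersed repeats, RMER for medium reiterated repeats found in rodents and MER for medium reiterated repeats first described in other mammals and, for most families, older than the rodent lineage. The members were all rows of the 2 sperm RNA tables whose name begins with RMER or MER followed by a digit, which gave 64 of 3082 rows at 46 days (47 RMER, 17 MER) and 66 of 16242 rows at 24 h (47 RMER, 19 MER). Over both tables they were 70 families, 48 RMER and 22 MER, of which 60 were rows of both tables. RMER16B2, MER67D, MER68B and MER89 were rows of the 46 day table alone, and RMER16C, MER57D, MER67B, MER73, MER74B and MER90 of the 24 h table alone.

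The sperm came from C57Bl/6J males, 3 months old at the time of the injections, that had received tesaglitazar, an agonist of the nuclear receptors PPARα and PPARγ, at 10 µg per kg by intraperitoneal injection 2 times per week for 4 weeks (TESA), or the vehicle, DMSO in saline (CTRL). Dosing ended 46 days (7 TESA and 7 CTRL libraries) or 24 h (4 and 4) before the sperm were taken, by swim-up from the cauda epididymis with lysis of somatic cells. The study counted fewer TESA sperm samples at the later time than the labels list, and which library it left out is not given in the sources used here, so all were used. The comparison asks whether sperm RNA differs after treatment of the male, close to the treatment and after new sperm have formed. The 46 day libraries were made from rRNA-depleted total RNA and the 24 h libraries from polyA-selected RNA, so the time point and the library type cannot be told apart. The study describes its n, for its data in general, as animals counted once outliers were removed. The labels do not say whether libraries of 1 group came from separate males, so p-values measure the spread between these libraries.

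Both names cover remnants of endogenous retroviruses here. A retroviral insertion consists of an internal part, marked "-int" in the family name, between 2 long terminal repeats (LTRs), and recombination between the LTRs often leaves a solitary LTR that still holds promoter and polyadenylation signals. In the male germ line such insertions are held silent by DNA methylation, by KRAB zinc finger proteins with TRIM28 and SETDB1, and by piRNAs bound to PIWI proteins, and transcripts that escape or that run through a repeat inside another RNA are carried into sperm RNA. By name, 6 of the 48 RMER families were internal parts and 42 were LTRs, all 22 MER families belonged to LTR families (MER21, MER31, MER34, MER57, MER67, MER68, MER73, MER74, MER77, MER89 and MER90), and 0 were MER families of DNA transposons. RMER6, RMER12, RMER16, RMER17 and RMER19 are of the ERVK class, MER21, MER68, MER74 and MER77 of the ERVL class, and MER31, MER34, MER57 and MER67 of the ERV1 class. Each row sums a family over all its genomic copies, and copies of related families share sequence, so that the split of reads among RMER17 or RMER6 subfamilies is uncertain.

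Total counts per library ran from 4538102 to 13513816 at 46 days and from 15337589 to 27709990 at 24 h. The 46 day libraries differed far more in what was left outside their 5 most abundant rows, from 158820 counts in the TESA library KG8-02 to 7119414 in the CTRL library KG8-14. The TMM factors, which scale libraries to one another, spanned 0.0981 (KG8-02) to 8.15 (KG8-14) at 46 days and 0.771 to 1.57 at 24 h. RMER rows received 2003 counts in KG8-02 and 107873 in KG8-14, and MER rows at most 4046, also in KG8-14. KG8-02 and KG8-14 therefore stood apart in the counts outside the 5 most abundant rows. Their totals, 8758552 and 9617533, lay inside the range of the other libraries. KG8-12 had the lowest RMER to MER ratio. At 24 h, RMER rows received 13042 to 38382 counts and MER rows 499 to 1510.

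RMER rows took 0.0229% to 1.12% of all counts in the 46 day libraries, a 49.05-fold range, and 0.0811% to 0.139% in the 24 h libraries. The share at 46 days was 0.0229% at the lowest, 0.0768% at the median and 0.474% at the highest among the 7 TESA libraries, against 0.0842%, 0.226% and 1.12% among the 7 CTRL libraries. The groups overlapped, with 4 TESA libraries below the lowest CTRL library, KG8-06. The 5 most abundant rows set much of this range: of the counts outside them, RMER rows took 0.804%, 1.26% and 1.76% (lowest, median and highest) in TESA and 1.32%, 1.79% and 2.19% in CTRL. MER rows took 0.0301%, 0.0655% and 0.0836% of the same counts in TESA and 0.0568%, 0.0888% and 0.109% in CTRL. Both shares had lower medians in TESA, with groups that overlapped.

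At 24 h the shares were narrower. Of all counts, RMER rows took 0.0811%, 0.0821%, 0.0991% and 0.139% in the 4 TESA libraries and 0.0850%, 0.103%, 0.109% and 0.119% in the 4 CTRL libraries. The groups overlapped, and the TESA library ai_7, which had the largest total, was above every CTRL library. MER rows took 0.00384% ± 0.00122 of all counts in TESA and 0.00446% ± 0.000928 in CTRL (SD, n = 4 each), a difference smaller than the spread between libraries. Of the counts outside the 5 most abundant rows, RMER rows took 0.205% ± 0.0160 in TESA and 0.229% ± 0.0226 in CTRL, and MER rows 0.00784% ± 0.00124 and 0.00977% ± 0.00132 (SD, n = 4 each). Both differences were larger than the SD of either group, but the ranges overlapped (0.194% to 0.228% against 0.209% to 0.258% for RMER, 0.00608% to 0.00899% against 0.00832% to 0.0110% for MER), and they were not tested.

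The ratio of RMER to MER counts within a library does not depend on the scaling between libraries, so it sets the rodent families directly against the older ones. At 46 days log2 of this ratio was 3.84, 4.39 and 4.74 (lowest, median and highest) in TESA and 4.23, 4.33 and 4.74 in CTRL, with means of 4.39 ± 0.31 and 4.38 ± 0.17 (SD, n = 7 each). The groups overlapped over most of their range, and the lowest library, KG8-12, and the highest, KG8-01, were both TESA. Among KG8-01 to KG8-10, an alternative chosen after the data were seen, the means were 4.43 ± 0.19 in TESA and 4.34 ± 0.08 in CTRL (SD, n = 5 each); KG8-11 to KG8-14 hold 2 libraries of each group, too few for a spread. At 24 h the ratio was 5.00, 4.56, 4.66 and 4.67 in TESA and 4.96, 4.28, 4.71 and 4.28 in CTRL, with means of 4.72 ± 0.19 and 4.56 ± 0.34 (SD, n = 4 each). RMER rows thus held 20.5 times the counts of MER rows in the median library at 46 days and 25.4 times at 24 h. With all libraries in, the difference between treated and vehicle groups was smaller than the spread between libraries at both times. When 1 library was left out, the 24 h difference ran from 0.07 (without ai_1) to 0.30 (without ai_2) log2 units. The ratios are of sums over families of unknown total length and say nothing of transcripts per copy.

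**Figure D1:**
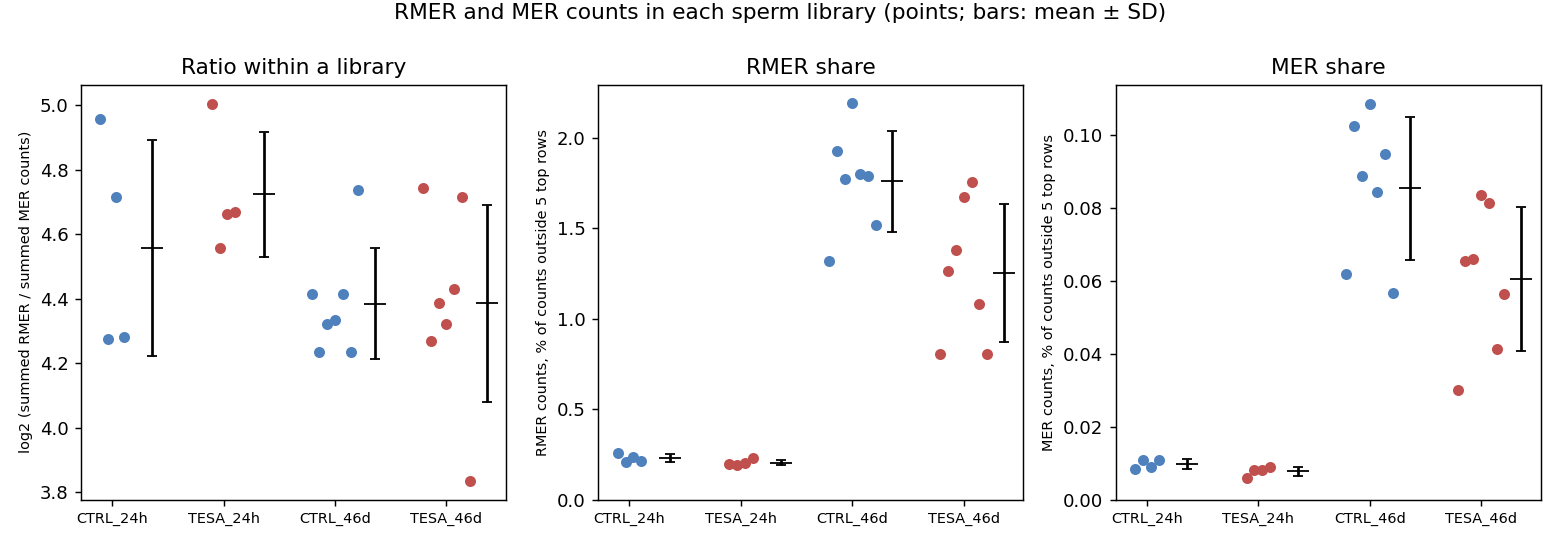
The log2 ratio of summed RMER to summed MER counts (left) and the RMER and MER counts as a percentage of counts outside the 5 most abundant rows (middle, right) are plotted for each sperm library of the CTRL (blue) and TESA (red) groups, with bars for mean ± SD. The groups overlap in all 3 panels at 46 days, where log2 ratios run from 3.84 to 4.74, and at 24 h, where they run from 4.28 to 5.00.

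The counts were spread over many families, and the 4 with the largest mean share together held 27.8% of member counts at 46 days and 35.4% at 24 h. At 46 days the families with the largest mean share of member counts were RMER17C2 (7.30% ± 1.75), RMER19B (7.20% ± 0.904), RMER6A (7.05% ± 0.686) and RMER15 (6.25% ± 0.772; SD, n = 14). Among MER families, MER21C (1.06% ± 0.186) and MER21B (0.745% ± 0.177) received the most counts, and every other MER family had 0.254% or less. RMER17C2 had normalised read counts, scaled to a common library size (CPM), of 74.1, 100.8 and 172 (lowest, median and highest) in TESA and 106.8, 131 and 178 in CTRL, and RMER19B had 51.1, 118.6 and 178 in TESA and 90.3, 144 and 196 in CTRL. The ranges overlapped for both. MER21C had 5.02, 18.3 and 30.3 CPM in TESA and 11.9, 23.4 and 28.6 in CTRL, and MER21B 4.68, 13.6 and 24.9 in TESA and 7.91, 14.5 and 18.7 in CTRL. The spread between vehicle libraries was larger for MER than for RMER rows, with a median coefficient of variation of 32.2% against 24.3% at 46 days and 34.01% against 24.0% at 24 h. Over all tested rows it was 24.3% and 38.9%. At 46 days the steadiest member was RMER12B (8.41%), and at 24 h the most variable was MER77 (89.2%), with 0 counts in at least 1 library.

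At 46 days, 63 of the 64 member rows passed the filter of more than 20 counts in at least 6 libraries (47 RMER and 16 MER; MER68B did not pass). None of them was called at an adjusted p below 0.05 by the quasi-likelihood test of edgeR, and neither was any of the 2866 rows tested (0%). At an unadjusted p below 0.05 there were 2 members of 63, RMER16B2 and MER67D, both lower in TESA, against 152 of all tested rows (5.3%; 30 of them lower, 1.05%) and 17 of 567 transposable element rows (3%; 12 lower, 2.12%). The share of members was near that of element rows. edgeR's exact test, DESeq2 and limma voom also called 0 members, and 14, 0 and 0 of all rows. At an unadjusted p below 0.05 they gave 2, 2 and 13 members, against 190, 135 and 219 of all rows.

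Both of these families were rows of the 46 day table only, and both had been shown by the study for sperm of this time point, so their direction is not independent evidence. RMER16B2, an ERVK-class LTR, had 0.446, 2.23 and 3.95 CPM (lowest, median and highest) in TESA and 2.41, 3.24 and 4.61 in CTRL. The CPM of 5 TESA libraries was below that of every CTRL library, while KG8-12, at 3.95 CPM, was above 5 of them. The log2 fold change was -0.97 ± 0.36 (SE), with an unadjusted p of 0.0166 and an adjusted p of 0.8289 (edgeR). Over 26 alternatives the fold change ran from -2.25 to -0.60. Without KG8-03 the unadjusted p of RMER16B2 (edgeR) was not below 0.05. MER67D, an LTR of the ERV1 class, had 0.558, 1.91 and 3.16 CPM in TESA and 1.53, 2.74 and 4.09 in CTRL, with 3 TESA libraries below all CTRL libraries. Its log2 fold change was -0.87 ± 0.36 (SE), with an unadjusted p of 0.0294 and an adjusted p of 0.857 (edgeR). Over 25 alternatives the fold change ran from -2.23 to -0.47. The unadjusted p of MER67D (edgeR) was not below 0.05 without KG8-01, KG8-07, KG8-09, KG8-11 or KG8-13. The depth behind both was low: RMER16B2 received 2 to 189 counts per library and MER67D 1 to 144, in each case with the fewest in KG8-02. MER67D had more than 20 counts only in KG8-07, KG8-09, KG8-10, KG8-13 and KG8-14 of CTRL and in KG8-11 of TESA. It thus passed the filter mainly through CTRL, the group where its values were higher.

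The other families with the smallest p at 46 days had values inside the spread of the libraries. Among RMER rows, RMER6B had a log2 fold change of -0.52 ± 0.30, RMER21A -0.42 ± 0.29, RMER19A -0.46 ± 0.31, RMER21B -0.44 ± 0.30 and RMER16A2 -0.49 ± 0.35 (SE; adjusted p of 0.999 for each in edgeR). Among MER rows, MER74A had -0.58 ± 0.43, MER68 -0.44 ± 0.33, MER34A -0.38 ± 0.38, MER67C -0.25 ± 0.30 and MER31B -0.29 ± 0.38, also at an adjusted p of 0.999. For the most abundant families the values were -0.16 ± 0.20 for RMER17C2, -0.36 ± 0.28 for RMER19B, -0.25 ± 0.34 for MER21C and -0.14 ± 0.33 for MER21B. Over 26 alternatives RMER17C2 ran from -1.55 to 0.14 and MER21B from -1.57 to 0.13, with a turned sign in 1 and 2 of them. RMER19B and MER21C stayed below 0 in all 26, while MER67C and MER31B each turned sign in 1.

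The median log2 fold change at 46 days was -0.24 over the 47 RMER rows, with 45 below 0, and -0.25 over the 16 MER rows, with 14 below 0. It was -0.25 over all 567 element rows, with 531 below 0 (93.7%), and -0.03 over all 2866 rows, with 1548 below 0 (54%). RLTR rows, another set of rodent LTR families, had -0.32 and MLT rows, mammalian LTR families, -0.29. The values below 0 were thus shared by element rows at large. TMM factors computed over element rows centre those rows near 0 by construction (median 0.01), so the medians of -0.01 for RMER and 0.07 for MER rows under them say nothing of the sign, and the median over all rows was 0.48. With limma voom the medians were -0.48 for RMER and -0.62 for MER rows, beside -0.54 for element rows and -0.04 for all rows. With library totals the medians were -1.71 and -1.66, beside -1.74 for element rows and -1.09 for all rows. Single libraries moved the RMER and MER medians in both directions, to -0.12 and -0.07 without KG8-01, -0.15 and -0.07 without KG8-11, -0.38 and -0.38 without KG8-04, and -0.37 and -0.46 without KG8-12. Without KG8-02 and KG8-12 together, an alternative chosen after the data were seen, the RMER and MER medians were -0.50 and -0.57 beside -0.48 for element rows, and 4 of 64 members had an unadjusted p below 0.05, RMER16B2, MER67D, RMER17C-int and RMER6BA, against 111 of 3047 rows (3.64%). By subfamily, the RMER19 rows had a median of -0.39 (4 of 4 below 0), the RMER16 rows -0.42 (6 of 6), the RMER6 rows -0.23 (6 of 6), the RMER17 rows -0.18 (9 of 10) and the RMER12 rows -0.13 (2 of 3). Internal parts and LTRs lay close together, at -0.23 (6 rows) and -0.27 (41 rows).

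At 24 h, 55 of the 66 members passed the filter of more than 20 counts in at least 4 libraries (44 RMER and 11 MER). None was called at an adjusted p below 0.05 (edgeR), as for all 13752 rows tested (0%). At an unadjusted p below 0.05 there were 8 members of 55, all lower in TESA: RMER19C, RMER3D-int, RMER12C, RMER6B, RMER16-int, RMER6BA, RMER12 and MER67C. This compares with 372 of all rows (2.71%; 241 lower, 1.75%) and 44 of 542 element rows (8.12%; 43 lower, 7.93%). edgeR's exact test, DESeq2 and limma voom called 0 members and 0 of all rows, and gave 7, 8 and 7 members at an unadjusted p below 0.05, against 377, 492 and 729 of all rows. With element rows alone in the fit there were 10 members, against 65 of 542 rows. With library totals or with TMM factors over element rows there were 0 members, against 151 and 922 of all rows; the second scaling centres the element rows, members among them, by construction. Fold changes stayed below 0 over all 17 alternatives for RMER3D-int (log2 -1.35 to -0.82), RMER6BA (-1.32 to -0.79), RMER19C (-0.74 to -0.36) and MER67C (-1.76 to -1.09). The same held for RMER12C, RMER6B and RMER16-int. The count was 4 or 5 without ai_1, ai_2, ai_5, ai_6 or ai_7, against 278 to 404 of all rows. RMER12, seventh by p, was named after its values were seen.

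RMER19C, an ERVK-class LTR, had 10.8, 9.56, 10.9 and 12.4 CPM in TESA and 17.4, 18.3, 18.5 and 15.7 in CTRL. All TESA libraries were below all CTRL libraries. The log2 fold change was -0.68 ± 0.22 (SE), with an unadjusted p of 0.0104 and an adjusted p of 1.00 (edgeR), and it was the member with the smallest p at this time.

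RMER3D-int, the internal part of the RMER3D element, had 6.04, 3.03, 2.71 and 5.09 CPM in TESA and 12.2, 5.90, 9.65 and 9.78 in CTRL. The groups overlapped through a single library each, ai_1 in TESA and ai_4 in CTRL. The log2 fold change was -1.15 ± 0.39 (SE; unadjusted p 0.0143, adjusted p 1.00 in edgeR). At 46 days the same row had -0.10 ± 0.30.

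RMER12C had 8.63, 9.39, 8.67 and 12.3 CPM in TESA and 15.04, 12.6, 22.8 and 16.6 in CTRL, without overlap. The related family RMER12 had 7.71, 9.43, 9.56 and 9.29 CPM in TESA and 18.1, 11.8, 10.6 and 14.3 in CTRL, also without overlap. Their log2 fold changes were -0.78 ± 0.27 and -0.61 ± 0.26 (SE), and RMER12B, the remaining family of this name, had -0.34 ± 0.25.

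RMER6B had 3.89, 4.54, 5.17 and 7.46 CPM in TESA and 11.7, 12.2, 7.52 and 8.59 in CTRL, and RMER6BA had 1.23, 2.68, 1.82 and 2.27 in TESA and 7.27, 3.72, 3.78 and 3.05 in CTRL. Neither pair of ranges overlapped, although for RMER6B the gap between ai_7 (7.46) and ai_6 (7.52) was small. The log2 fold changes were -0.92 ± 0.33 and -1.15 ± 0.49 (SE). All 5 RMER6 rows tested at 24 h were below 0, with a median of -0.71 and a range of -1.15 to -0.29.

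RMER16-int, the internal part of RMER16, had 8.94, 11.2, 7.39 and 7.43 CPM in TESA and 15.96, 13.9, 10.8 and 16.8 in CTRL, with ai_3 of TESA above ai_6 of CTRL. The log2 fold change was -0.72 ± 0.27 (SE). MER67C, the MER row with the smallest p, had 1.604, 1.56, 1.08 and 0.665 CPM in TESA and 4.93, 1.21, 2.86 and 4.18 in CTRL, with ai_4 of CTRL inside the TESA range. Its log2 fold change was -1.43 ± 0.62 (SE; unadjusted p 0.0452, adjusted p 1.00 in edgeR), on 15 to 126 counts per library.

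Errors were wide at 24 h for MER families with few counts. MER68 had -1.504 ± 1.15, with 0 counts in ai_5 and 99 in ai_8, MER90a 0.65 ± 0.83 and MER31A -0.41 ± 0.68, while the more abundant MER21C had -0.32 ± 0.35 and MER21B -0.29 ± 0.32 (log2 ± SE). The median number of counts per library was 42.2 for the tested MER rows and 309 for the tested RMER rows, with a median SE of 0.70 and 0.30. RMER17C2, the most abundant member, had 235, 143, 171 and 104.3 CPM in TESA and 195, 126, 124 and 68.6 in CTRL, and its log2 fold change was 0.35 ± 0.35. The next most abundant, RMER17C, had -0.47 ± 0.29.

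**Figure D2:**
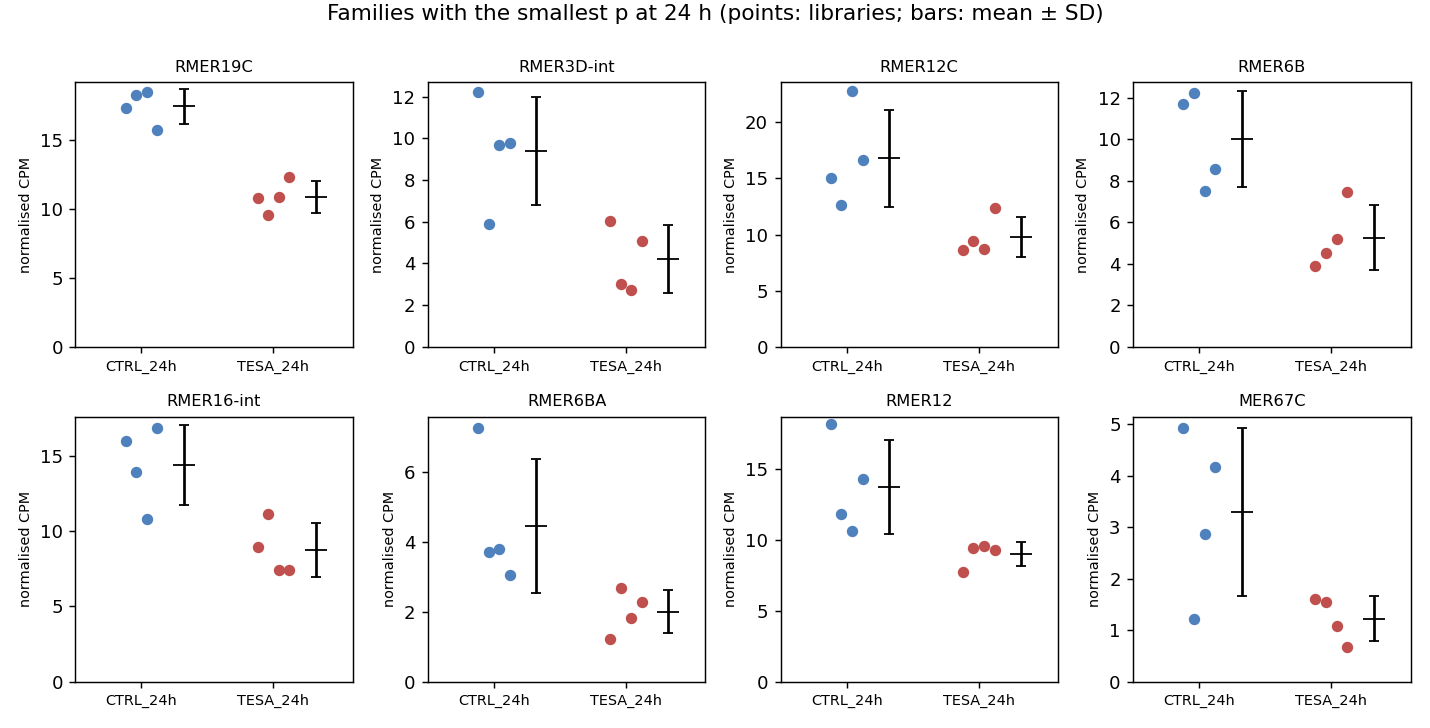
Normalised CPM of the 8 families with an unadjusted p below 0.05 at 24 h is plotted for each CTRL (blue) and TESA (red) library, n = 4 each, with bars for mean ± SD. RMER19C, RMER12C, RMER6B, RMER6BA and RMER12 do not overlap between groups with TMM over all rows; with library totals 0 members lie apart in this way.

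In 7 of 55 members every TESA library was below every CTRL library at 24 h: RMER19C, RMER12C, RMER6B, RMER6BA, RMER12, RMER4B and RMER20B, the last 2 of which were named after their values were seen. The same held for 268 of all rows (1.95%) and for 45 of 542 element rows (8.3%). With alternatives chosen after the data were seen, it held for 0 members and 79 of all rows (library totals), 3 and 67 (TMM over element rows) and 9 and 247 (DESeq2 size factors). It held for 8 to 12 members when 1 library was left out, which leaves 3 against 4 libraries and fewer values to overlap, with 2.76% to 4.60% of all rows; the count was 12 without ai_3 or ai_4 and 11 without ai_6, ai_7 or ai_8. At 46 days it held for 0 members and 0 of all rows (0%; 0% of element rows).

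The medians at 24 h were -0.41 for RMER rows, with 37 of 44 below 0, and -0.39 for MER rows, with 9 of 11 below 0. All element rows had -0.32, with 430 of 542 below 0 (79.3%), and all rows -0.02, with 7183 of 13752 below 0 (52.2%). RLTR rows had a median of -0.25 and MLT rows -0.38. With TMM over element rows the RMER and MER medians were -0.10 and -0.03, with element rows centred by construction and all rows at 0.30; with library totals they were -0.18 and -0.11, with element rows at -0.08 and all rows at 0.19. Relative to the median of element rows, the RMER median lay at -0.09. The spread of 0.21 between libraries (SD) is that of the RMER level, not of this distance, whose own spread was not computed. This distance depended on single libraries: it was -0.16 without ai_1, -0.15 without ai_4, -0.05 without ai_6, -0.015 without ai_2 and -0.0042 without ai_3, and it was -0.06 with limma voom. By subfamily, the RMER16 rows had a median of -0.74 (3 of 4 below 0), RMER6 -0.71 (5 of 5), RMER12 -0.61 (3 of 3), RMER17 -0.47 (8 of 10) and RMER19 -0.38 (4 of 4). The 5 internal parts had a median of -0.72 and a range of -1.15 to 0.07, and the 39 LTR rows -0.41 and -1.15 to 0.47.

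**Figure D3:**
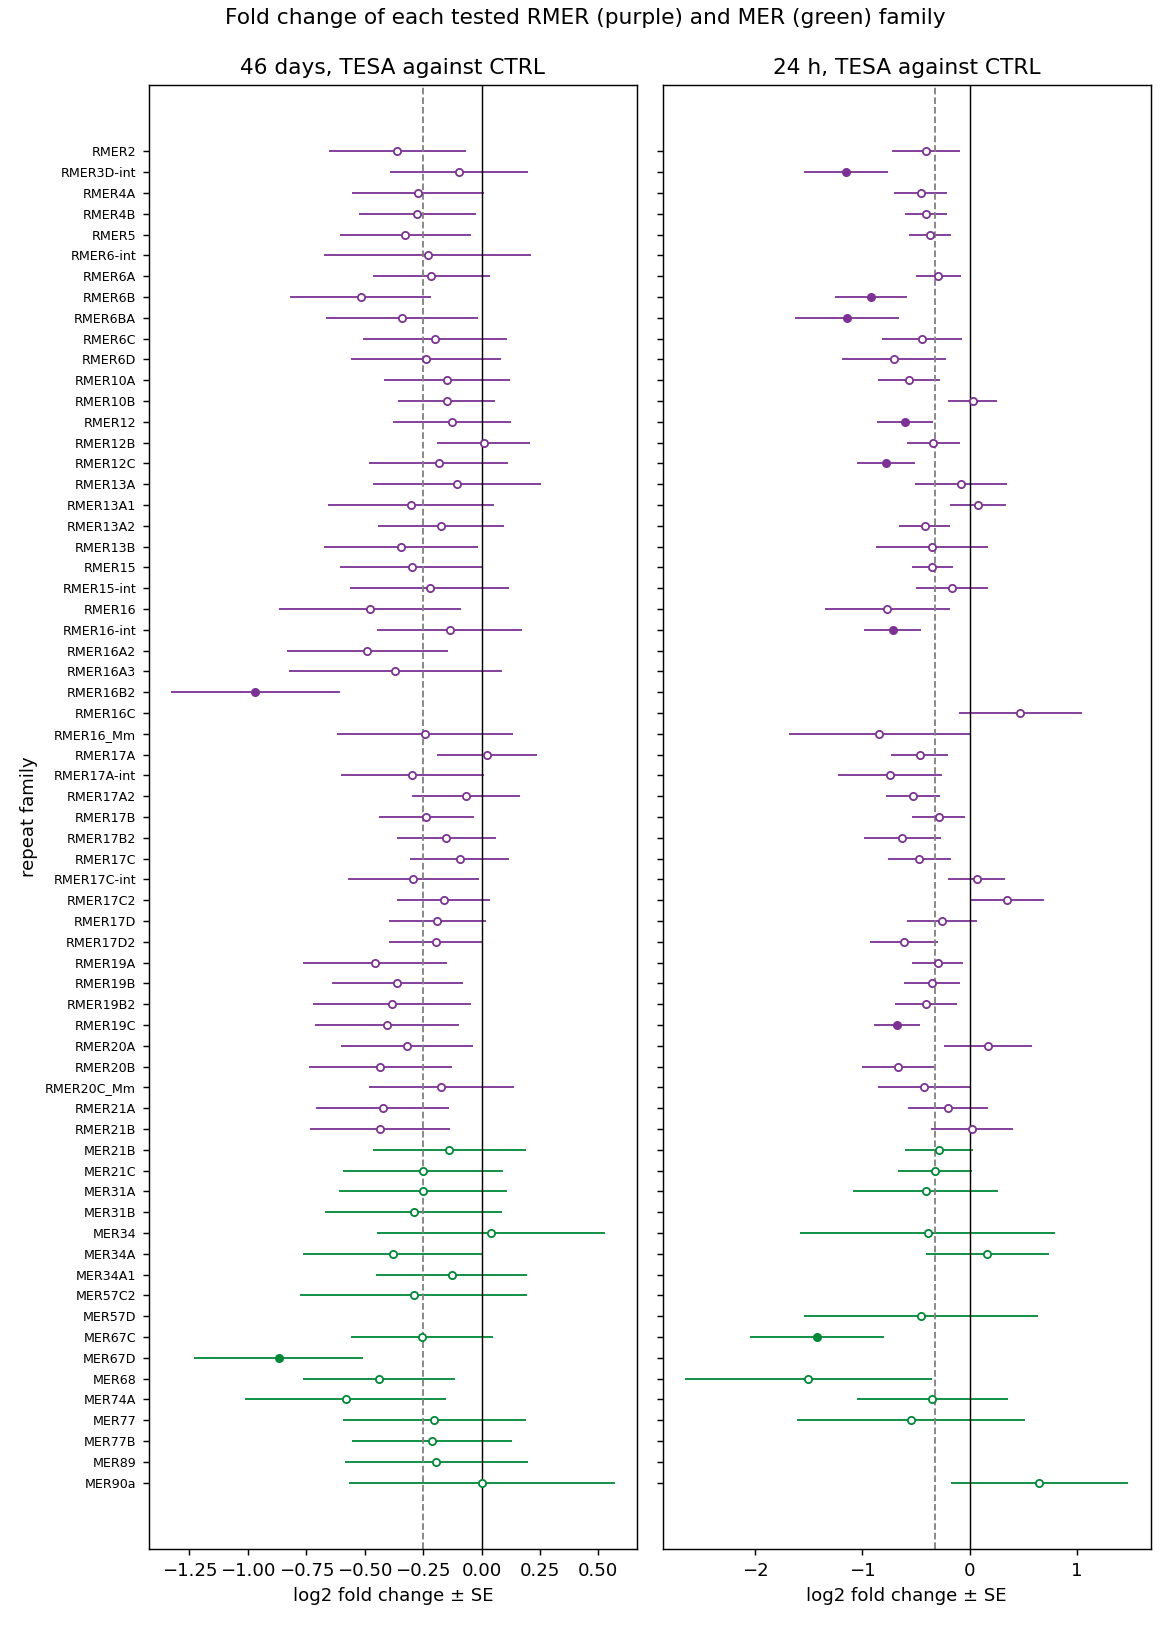
The log2 fold change (TESA against CTRL) ± SE of each tested RMER (purple) and MER (green) family is plotted at 46 days (left, n = 7 each) and 24 h (right, n = 4 each), filled where the unadjusted p was below 0.05; the dashed line is the median of all element rows, -0.25 and -0.32. Most families lie near that line, and the median SE at 24 h is 0.70 for MER and 0.30 for RMER families.

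The difference between the 2 times was tested in one model over the 2680 rows that passed both filters, 53 of them members (43 RMER and 10 MER). No member and 0% of all rows had an adjusted interaction p below 0.05 (edgeR). At an unadjusted p below 0.05 there were 2 members, RMER3D-int (24 h minus 46 days, -1.06 ± 0.48 log2 units, SE; unadjusted p 0.0392, adjusted p 0.582) and MER67C (-1.20 ± 0.56; 0.0424 and 0.590), against 219 of all rows (8.17%) and 10 of 507 element rows (1.97%). The members' share was nearer to that of element rows. Over 26 alternatives the count ran from 0 to 3 members and was below 2 in 17. It was 0 with library totals and without KG8-02, KG8-04, KG8-05, KG8-06, KG8-08, KG8-10, KG8-12, KG8-14, ai_2, ai_5 or ai_8, 1 with element rows alone and without KG8-03, KG8-09, ai_6 or ai_7, and 3 with TMM over element rows and without KG8-01. RMER6B and RMER19C, lower in TESA at 24 h, had interaction estimates of -0.40 ± 0.46 and -0.27 ± 0.44. Of the 53 members, 42 had a log2 fold change below 0 at both times, against 381 of 507 element rows and 1074 of all 2680 rows.

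The make-up of the member counts was then set side by side between vehicle libraries of the 2 tables, as shares of the summed counts of the 60 families in both, a comparison chosen after the data were seen. The shares do not depend on scaling, but the tables differ in time, library type and sequencing. In 9 RMER families every CTRL library at 24 h had a higher share than every CTRL library at 46 days, and in 8 RMER and 3 MER families a lower one. These 20 of 60 families compare with 210 of 501 other element families treated in the same way (41.9%), so that members moved no more often than elements in general.

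The largest shifts toward the rRNA-depleted libraries were those of RMER6-int, RMER6C and RMER6D. RMER6C took 5.16% ± 0.363 of member counts in CTRL at 46 days (SD, n = 7) and 1.65% ± 0.384 at 24 h (SD, n = 4), a 3.13-fold difference. Its range was 4.40% to 5.45% against 1.28% to 2.08%, and TESA libraries had 4.04% to 5.90% and 0.783% to 2.61%, so that each of the 22 libraries lay on the side of its own table. RMER6D took 2.31% ± 0.207 and 0.791% ± 0.241, and the internal part RMER6-int 0.232% ± 0.0404 and 0.0515% ± 0.0259. The depth behind RMER6-int was low at 24 h, with 85 counts over all 8 libraries, and it did not pass the count filter there. RMER6A, by contrast, had 7.04% ± 0.598 and 7.03% ± 1.74, and the CTRL ranges of RMER6B and RMER6BA also overlapped between the times.

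In the other direction, RMER21B took 0.467% ± 0.0529 of member counts in CTRL at 46 days and 1.47% ± 0.354 at 24 h, a 3.14-fold difference, and RMER21A 0.375% ± 0.0468 and 0.6245% ± 0.127. The internal parts RMER17A-int (0.189% ± 0.0306 and 0.872% ± 0.487) and RMER17C-int (0.485% ± 0.0412 and 1.20% ± 0.181) were also higher in the polyA-selected libraries, while RMER15-int (1.33% ± 0.125 and 0.550% ± 0.167) and RMER3D-int (1.21% ± 0.131 and 0.812% ± 0.195) were higher in the rRNA-depleted ones. Internal parts therefore did not move as a group. Among MER families, MER31A, MER77B and MER90a had higher shares at 46 days, on 223, 121 and 209 counts over all 8 libraries at 24 h, where MER77B did not pass the count filter, and MER21C was level, at 1.08% ± 0.135 and 1.09% ± 0.435.

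**Figure D4:**
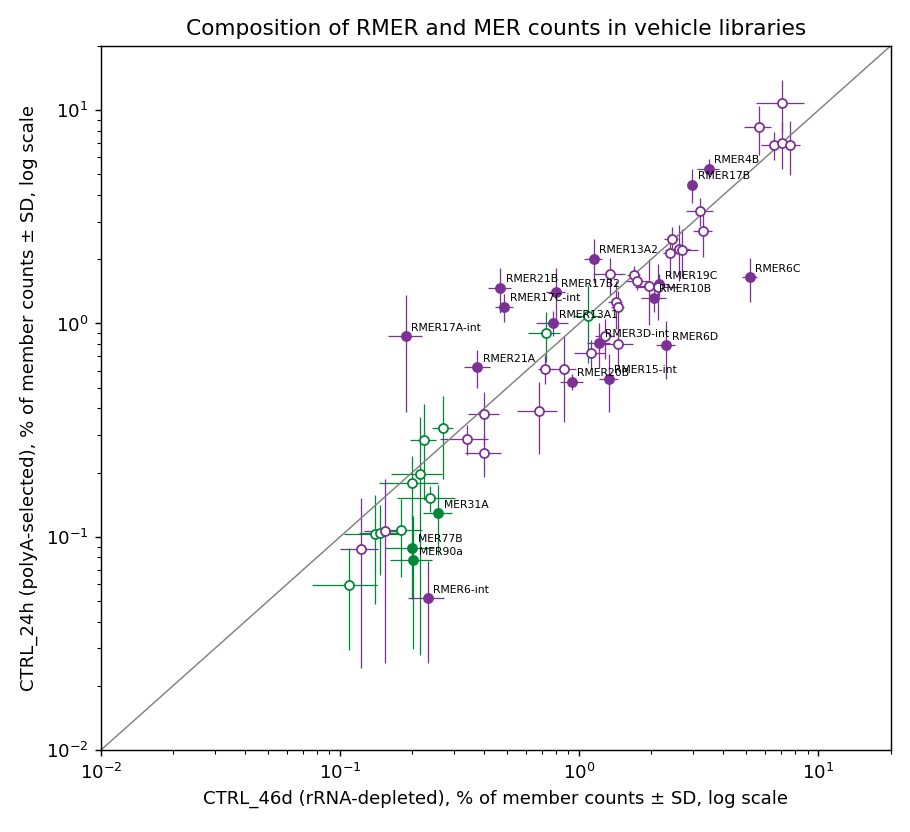
Mean share of the summed counts of the 60 shared families in CTRL libraries is plotted at 46 days (x axis, n = 7) against 24 h (y axis, n = 4) on log scales, with bars for SD, for RMER (purple) and MER (green) families; filled and named points are the 20 whose ranges do not overlap. RMER6C lies farthest below the diagonal among abundant families (5.16% and 1.65%), and RMER21B and RMER17A-int lie above it.

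Genes known to silence repeats gave no call. Of the 46 genes of this list, 33 were tested at 24 h and 6 at 46 days, and 0 were called by edgeR at an adjusted p below 0.05 at either time; at an unadjusted p below 0.05 there were also 0. Their median log2 fold change was -0.02 at 24 h and 0.03 at 46 days. The 38 genes of the list present at 24 h summed to 292 to 308 CPM in TESA and 306 to 342 in CTRL. These ranges overlapped through ai_3 of TESA, and the sums were not tested. At 24 h, Zfp809, a KRAB zinc finger protein that recognises retroviral primer binding sites, had 3.53 ± 0.622 CPM in TESA and 5.70 ± 1.21 in CTRL (SD, n = 4 each; log2 -0.69 ± 0.36, SE), and Trim28, its co-repressor, 26.2 ± 3.38 and 25.1 ± 3.13. Morc2a, an ATPase of the HUSH silencing pathway, had 11.6 ± 6.07 and 20.2 ± 8.73 (log2 -0.81 ± 0.43, SE; adjusted p 1.00 in edgeR). These 3 were named after their values were seen. Daxx (log2 0.58 ± 0.46, SE) and Mphosph8 (0.40 ± 0.44), named in the same way, had higher means in TESA.

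Markers of other cells were read to see which RNAs the libraries held. At 24 h all 10 sperm and late spermatid genes were present, with Odf1, a protein of the sperm tail, at 978 to 3377 CPM in CTRL and 1284 to 3176 in TESA. All 10 leukocyte genes were also present and summed to 2080, 1258, 2200 and 2570 CPM in TESA and to 1701, 1199, 2066 and 1534 in CTRL. Cd52, which the epididymal epithelium also makes, held most of this sum (1029 to 2382 CPM), and Ptprc, the pan-leukocyte CD45, had 0.642 to 10.8 CPM in TESA and 4.51 to 13.8 in CTRL. The 7 of 12 epididymal genes in the table summed to 926 to 1552 CPM in TESA and 912 to 2691 in CTRL, most of it Spink8 (524 to 889 CPM) and Crisp1 (256 to 1697), and the 4 of 5 blood genes to 64.7 to 147 and 53.5 to 269.9, with Hba-a2 the most abundant on average. Of the 8 Sertoli and Leydig cell genes, Clu and Sox9 were rows of the table and summed to 379 to 1208 and 394 to 611 CPM, nearly all of it Clu, which many epithelia make. The groups overlapped in each list, 0 genes of these lists were called, and the part of such cells in the repeat counts was not tested; fewer cells of a type and less RNA per cell cannot be told apart. In the 46 day table the 10 sperm genes were rows and 0 genes of the other 4 lists were, so the levels of those cells were not read there.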

How the data were processed

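The deposited values were estimated counts per gene or repeat family, which the authors made by trimming reads with Trim Galore (version 1.16 in the submitters' processing notes) and quantifying them with Salmon 0.11.2 on GENCODE transcripts, piRNA precursors and RepeatMasker elements concatenated by family (build GRCm38). The filter behind the deposited tables is not given in the sources used here. Estimated counts were rounded to whole numbers. Each sperm table was fitted apart in R 4.3.3 with edgeR 4.0.16 (quasi-likelihood test, TMM over all rows, Benjamini-Hochberg adjustment over all tested rows). Tested rows had more than 20 counts in a number of libraries, of either group, that was at least 80% of the smaller group's size. DESeq2 1.42.0, limma 3.58.1 voom, edgeR's exact test, other scalings and filters, and leaving out each library (with the filter's 80% taken anew) were alternatives. CPM are counts scaled by the library size and its TMM factor. The steps were tested on simulated data. No pair of libraries was identical. The 8 serum samples hold no repeat family and were not used.

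The members and lists were chosen with earlier results of these data known. Named families were, in each comparison, the 6 RMER and 6 MER rows with the smallest unadjusted p, any called member, the 2 RMER and 2 MER rows with the largest mean share, any called in the interaction (at most 6), and RMER16B2 and MER67D, which the study showed. Lists covered repeat silencing and markers of sperm, leukocytes, epididymis, blood, and Sertoli and Leydig cells. Standard errors were the absolute log2 fold change divided by the square root of the F statistic.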

Additional observations from a re-analysis of the deposited data

Results flagged for a closer look

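Of 88 sets of library values examined for a library far from the rest of its group, 4 had one; chance gives about 1 in 20. In TESA at 46 days, KG8-11 had an RMER share of 0.474% of all counts, against 0.0229% to 0.154% in the other libraries, and a MER share of 0.0180%, against 0.00119% to 0.00735%. In CTRL at 46 days, KG8-14 had a log2 RMER to MER ratio of 4.74, against 4.23 to 4.42. In TESA at 24 h, ai_5 had 0.542 CPM of MER90a, on 11 counts, against 1.54 to 1.69 CPM in the other 3 libraries.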

How the results depend on the processing

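No member was called at an adjusted p below 0.05 under any alternative run at either time (edgeR, DESeq2 and limma voom). None was called in the interaction under the 26 alternatives run for it. At an unadjusted p below 0.05, the main edgeR fits gave 2 members at 46 days and 8 at 24 h. At 46 days that unadjusted count was 13 with library totals (206 of all 2866 rows), 13 with limma voom (219), 1 with KG8-01 to KG8-10 alone (73 of 2750), 4 without KG8-02 and KG8-12 together, chosen after the data were seen (111 of 3047), and 1 to 3 when single libraries were left out (92 to 224 of all rows; 1 without KG8-01, KG8-03, KG8-07, KG8-09, KG8-11 or KG8-13). At 24 h it was 10 with element rows alone (65 of 542), 0 with library totals (151 of 13752 rows), 0 with TMM over element rows (922), and 4 to 8 without single libraries (259 to 582). Library totals gave medians of -1.71 (RMER) and -1.66 (MER) at 46 days and -0.18 and -0.11 at 24 h. TMM over element rows gave -0.10 and -0.029 at 24 h. Leaving out single libraries gave -0.38 (without KG8-04) to -0.12 (without KG8-01) for RMER rows and -0.46 (without KG8-12) to -0.07 (without KG8-01) for MER rows at 46 days, and -0.46 to -0.32 and -0.51 to -0.28 at 24 h. Members with every TESA library below every CTRL library at 24 h numbered 7, or, with alternatives chosen after the data were seen, 0 with library totals, 3 with TMM over element rows, 9 with DESeq2 size factors and 8 to 12 without single libraries. The mean log2 RMER to MER ratio, TESA minus CTRL, was 0.001 at 46 days (-0.06 to 0.09 without single libraries) and 0.17 at 24 h (0.07 to 0.30). The log2 share of counts on MER rows at 46 days, TESA minus CTRL, was -1.80 and, of counts outside the 5 most abundant rows, -0.54. The RMER share differed by nearly the same amounts, since the mean log2 RMER to MER ratio differed by only 0.001 at that time. The cause of these differences was not tested. At 24 h, 19 member values were 0. Library names are not shared between groups and the labels give no pairs, so no paired analysis was run. Pairs by the order of the library numbers were not tested.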
